A study of Mus musculus with 10 samples.

Results

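The enzymes that join glutathione, glucuronic acid or sulfate to other molecules were followed in the livers of mice with lung tumours. They were taken as the protein-coding genes whose GENCODE M21 symbol belongs to the glutathione transferases (Gsta, Gstk, Gstm, Gsto, Gstp, Gstt, Gstz and Mgst), the UDP-glucuronosyltransferases (Ugt1, Ugt2 and Ugt3) or the sulfotransferases (Sult1 to Sult5), with at least 10 counts in at least 5 livers. Of the 43629 identifiers in the count table, 64 carried such a symbol and 47 reached the minimum. These were 22 glutathione transferases, 17 UDP-glucuronosyltransferases and 8 sulfotransferases. The minimum was reached in all 10 livers by 43 of the 47, and 0 of them reached it through the livers of a single group only. Just inside the minimum were Sult1e1 and Ugt1a10, with at least 10 counts in 6 livers each, and just outside it were Gsto2 with 4 livers and Sult3a1 with 3. The 17 genes below the minimum were Gsto2, Gstt4, Mgst2, Sult1c1, Sult2a1 to Sult2a6, Sult2b1, Sult3a1, Sult3a2, Sult4a1, Ugt1a2, Ugt1a8 and Ugt2a2.

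Conjugation makes lipophilic drugs, pollutants, bilirubin, steroids and bile acids more soluble in water, so that they can leave the liver in bile or urine. Glutathione transferases add the thiol of glutathione to electrophiles, UDP-glucuronosyltransferases use UDP-glucuronic acid, and sulfotransferases use the activated sulfate PAPS. In hepatocytes many of these genes answer to receptors for foreign compounds and to hormones, and several differ in level between male and female mice.

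All mice were male KL mice, which carry Lkb1 flox/flox on a background crossed back to FVB, and all received adenovirus encoding Cre under a CMV promoter through the nose as adults to start tumours in the lung. Recombination in the liver itself was not tested, and all mice carried tumours, so that no tumour-free liver was compared here. Mice with cancer anorexia–cachexia syndrome (CACS, mice 16 to 20) had a weight change of -33 to -29%, and mice without it (NCACS, mice 11 to 15) of -14 to -3%. Each liver came from 1 mouse, and the groups held 5 mice each. Polyadenylated RNA was sequenced from liver RNA, and totals were 31945328 to 38306888 counts per NCACS liver and 31459179 to 40746178 per CACS liver. Levels are given as CPM, counts scaled to the size of each library, with sizes adjusted by the trimmed mean of M values (TMM). The summed level of 9 hepatocyte markers, albumin among them, was 99641 to 141178 CPM in NCACS livers against 129179 to 159045 CPM in CACS livers, and 0 of the 9 were at 0. Taken singly, 5 of the 9 were higher in CACS and 4 lower, with a median log2 fold change of 0.008. In the test given below 0 of the 9 passed.

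Most of the transferases did not pass the test between CACS and NCACS livers, and those that did were lower. Gstm6 and Gstm7, neighbours in the mu class of glutathione transferases, fell to 0.464 and 0.613 of their NCACS means, and 0 transferases were called higher. The other 45 had adjusted p-values of 0.0637 or more in edgeR's quasi-likelihood test, adjusted by Benjamini-Hochberg over all 14143 genes tested. The 2 genes called lower were 4.26% of the 47, against 1.92% of all genes tested that were called lower and 3.8% called in either direction. For the 0 genes called higher the background was 1.89%, and DESeq2 and limma-voom, which called 4.22% and 1.68% of all genes higher, called 0 of the transferases higher as well. In bulk liver RNA, fewer cells of a type and less RNA per cell cannot be told apart.

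The log2 fold change (CACS minus NCACS) was below 0 for 35 of the 47 transferases, with a median of -0.25, whereas 50.6% of all genes tested were below 0 and their median was -0.01. The 47 signs are not independent of each other, as NCACS mouse 14 had the highest level of 16 transferases and NCACS mouse 15 of 12. At an unadjusted p under 0.05, 10 transferases (21.3%) differed, 2 higher and 8 lower, and the share among all genes was 21.6% (11.3% higher and 10.3% lower). DESeq2 called 6, which were all lower (Gstm2, Gstm4, Gstm6, Gstm7, Sult5a1 and Ugt3a1), or 12.8% against 8.87% of all genes (4.65% called lower). Limma-voom called Gstm4, Gstm6 and Gstm7, 3 genes where its share of all genes was 3.6%. The 95% interval of the difference lay within 1 log2 unit of 0 for 24 transferases and within 0.5 for 8, and for the other 23 it reached past a 2-fold difference.

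**Figure D1:**
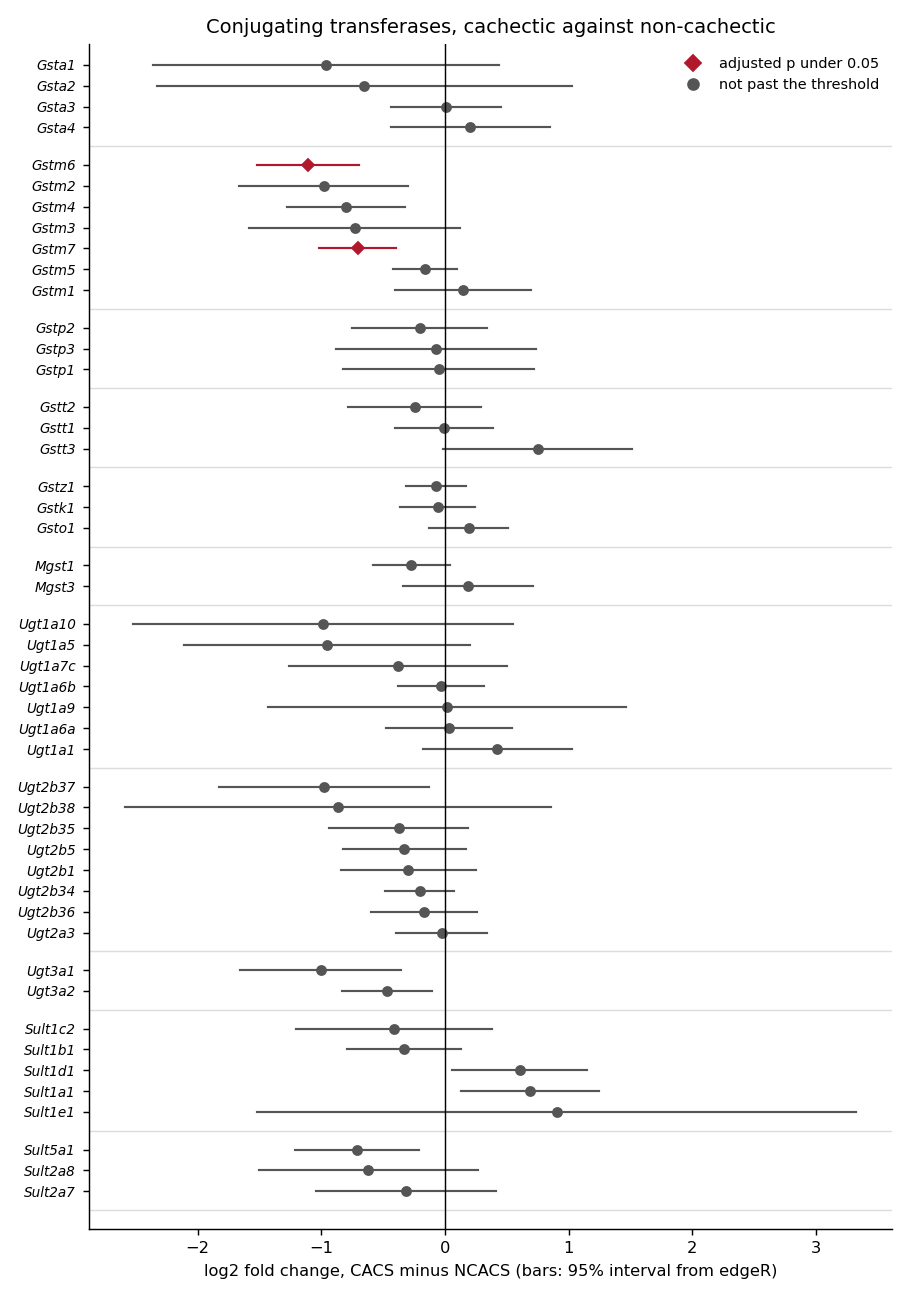
Log2 fold change (CACS minus NCACS, x axis) of each of the 47 transferases, in blocks by family, with 95% intervals derived from edgeR's test as bars. The 2 red diamonds, Gstm6 at -1.11 and Gstm7 at -0.71, mark adjusted p-values under 0.05, and all 8 Ugt2 genes lie below 0 with none past the threshold.

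The mu class held both genes that passed. Its 7 members lie side by side on chromosome 3 of GRCm38 in the order Gstm5, Gstm7, Gstm6, Gstm3, Gstm2, Gstm1 and Gstm4, within 107895821 to 108044894. Gstm6 (ENSMUSG00000068762, chromosome 3, 107938847 to 107943749, minus strand) had 118, 85.8, 83.4, 146 and 100.5 CPM in the livers of NCACS mice 11 to 15 and 47.2, 66.8, 35.0, 47.6 and 50.8 CPM in those of CACS mice 16 to 20. Every NCACS liver lay above every CACS liver. The group difference was -1.11 (SE 0.189, 95% interval -1.52 to -0.69, edgeR adjusted p = 0.0158), and it rested on 2579 to 4841 counts in NCACS and 1072 to 2547 in CACS livers.

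Gstm7 (ENSMUSG00000004035, chromosome 3, 107926334 to 107931817, minus strand) had 91.9, 74.6, 95.9, 119 and 91.9 CPM in NCACS livers against 51.8, 67.4, 44.7, 62.5 and 63.8 CPM in CACS livers. Again the groups did not overlap, with NCACS mouse 14 the highest and CACS mouse 18 the lowest for both genes. The log2 fold change of Gstm7 was -0.71 (SE 0.141, 95% interval -1.01 to -0.40, edgeR adjusted p = 0.0255). Gstm6 and Gstm7 were the 2 transferases without overlap, or 4.26% of the 47, while 3.13% of all genes tested lay lower in CACS without overlap, 3.95% higher, and 7.07% in either direction. Gstm6 was called in each of 19 fits, and Gstm7 in 15, with adjusted p-values from edgeR of 0.0569, 0.0534, 0.0625 and 0.0507 without NCACS mouse 11, NCACS mouse 14, CACS mouse 16 and CACS mouse 19.

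Gstm1 (ENSMUSG00000058135), the mu class enzyme with by far the highest level, showed no difference past the threshold. It had 1777, 1388, 1012, 2537 and 1328 CPM in NCACS livers against 1517, 2448, 1278, 1633 and 2017 CPM in CACS livers, and the groups overlapped over most of their range. On the log2 scale the difference was 0.15 (SE 0.251, 95% interval -0.40 to 0.69, edgeR adjusted p = 0.784). Within each liver, the ratio of Gstm6 to Gstm1 was 0.0575 to 0.0824 in NCACS and 0.0252 to 0.0311 in CACS livers, without overlap. The ratio of Gstm7 to Gstm1 was 0.0469 to 0.0948 against 0.0275 to 0.0383, also without overlap. These ratios were not tested, and Gstm6 and Gstm7 were chosen for being lower in CACS livers, so the ratios restate that choice in part.

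Between these extremes lay the rest of the cluster. Gstm4 had 77.4, 63.7, 69.5, 83.5 and 70.0 CPM in NCACS livers against 35.4, 72.9, 30.4, 31.9 and 38.5 CPM in CACS livers, where CACS mouse 17 reached into the NCACS range and the other 4 lay below it. A difference of -0.80 (SE 0.219) missed the threshold in edgeR (adjusted p = 0.0637), and its adjusted p was 0.00953 in DESeq2. With each mouse left out, edgeR called it in 1 of 10 fits, that without CACS mouse 17 (adjusted p = 0.00220), and it was weakest without CACS mouse 18 (-0.70), with adjusted p-values of up to 0.133. Gstm2 had 87.3, 73.6, 171, 72.9 and 64.5 CPM in NCACS livers, with mouse 13 far above the others, and 64.4, 43.5, 26.2, 35.9 and 67.3 CPM in CACS livers. For Gstm2 the log2 difference was -0.98 (adjusted p = 0.10 in edgeR and 0.0231 in DESeq2), and it was -0.65 without NCACS mouse 13. Gstm3 had a log2 fold change of -0.73 (edgeR adjusted p = 0.303) and Gstm5, on the opposite strand at one end of the cluster, of -0.16 (SE 0.117, edgeR adjusted p = 0.452). Transcripts of the class share sequence. Of 100-base windows 1.10% in Gstm6, 0 in Gstm7, 5.86% in Gstm1 and 13.8% in Gstm3 occurred in a transcript of another gene, so that Gstm3 is the least certain of the 4.

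**Figure D2:**
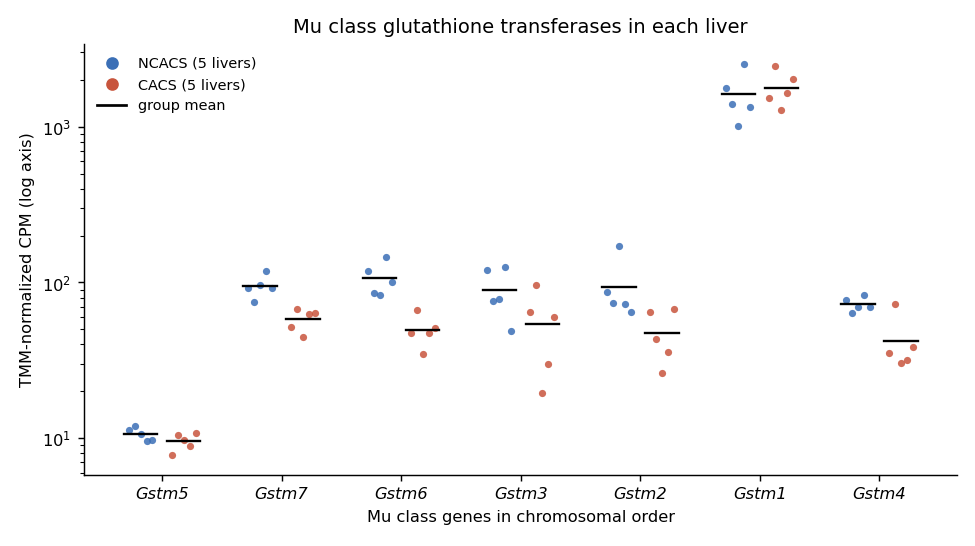
TMM-normalized CPM (log axis) of the 7 mu class genes in chromosomal order, with 1 point per liver (blue NCACS, red CACS) and a black line at each group mean. Red points lie below all blue points for Gstm7 and Gstm6, and among them for Gstm1, the gene at 1012 to 2537 CPM.

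The upstream sequences of the genes that fell and of their abundant neighbour are shown because the 3 lie in 1 cluster and differed in the comparison. Each is the 250 bases before the RefSeq transcript start nearest the GENCODE start of the gene, on GRCm38.p6, read 5′ to 3′ on the minus strand, at chr3:107943735-107943984 for Gstm6, chr3:107931818-107932067 for Gstm7 and chr3:108017974-108018223 for Gstm1. Capitals mark matches to the motifs searched on both strands.
Gstm6: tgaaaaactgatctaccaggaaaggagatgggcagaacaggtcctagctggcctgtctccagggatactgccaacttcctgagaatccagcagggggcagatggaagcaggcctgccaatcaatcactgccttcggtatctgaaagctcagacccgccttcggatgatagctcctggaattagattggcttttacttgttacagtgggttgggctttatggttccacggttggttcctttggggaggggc
Gstm7: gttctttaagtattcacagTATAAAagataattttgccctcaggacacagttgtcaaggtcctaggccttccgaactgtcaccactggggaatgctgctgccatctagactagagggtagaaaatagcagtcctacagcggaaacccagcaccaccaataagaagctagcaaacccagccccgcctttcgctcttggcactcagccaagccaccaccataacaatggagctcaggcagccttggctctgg
Gstm1: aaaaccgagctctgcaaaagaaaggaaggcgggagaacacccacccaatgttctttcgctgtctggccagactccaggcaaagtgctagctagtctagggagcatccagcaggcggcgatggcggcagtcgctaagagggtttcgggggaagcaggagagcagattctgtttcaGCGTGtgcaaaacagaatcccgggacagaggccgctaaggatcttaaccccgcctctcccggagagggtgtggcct
The motifs were the antioxidant response element core TGACNNNGC, the xenobiotic response element core GCGTG, the STAT site TTCNNNGAA and the TATA box TATAAA, none of which contains another. STAT sites with a shorter or longer gap, which the authors also marked at fly genes, were not searched. In these stretches, Gstm7 held TATAAA with its first base at -231 from the start and Gstm1 held GCGTG at -76. The Gstm6 stretch held no match to the motifs searched. Over windows from 250 bases before to 50 after all RefSeq starts of a gene, TGACNNNGC occurred in 4 of the 42 transferases with a window (Gsta3, Gstm5, Gstm7 and Mgst1) and in 13.99% of all 27025 genes. GCGTG occurred in 10 of the 42 and 35.2% of all genes, TTCNNNGAA in 4 (Gsta1, Gstm6, Mgst1 and Ugt1a6a) and 9.55%, and TATAAA in 7 and 15.7%. The matches of Gstm7 to TGACNNNGC, of Gstm6 to TTCNNNGAA and of Gstm1 to TATAAA lay outside the stretches printed. A match describes letters only and is not a site of binding.

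In the alpha class, which handles products of lipid peroxidation, 0 of 4 genes passed the test. Gsta3, the most abundant of them, had 1580.0, 1560.3, 1002, 2006 and 1714 CPM in NCACS livers against 1682, 1288, 1836, 1154 and 1950.5 CPM in CACS livers. NCACS mouse 13 was lowest and NCACS mouse 14 highest, and all CACS livers lay between them. In log2 units CACS minus NCACS was 0.01 (95% interval -0.44 to 0.45, edgeR adjusted p = 0.986), and its sign turned in some fits. Gsta4, the enzyme for the lipid aldehyde hydroxynonenal, had a log2 difference of 0.21 (95% interval -0.44 to 0.85), and Gsta1 and Gsta2 had -0.96 and -0.65 with intervals of -2.36 to 0.44 and -2.33 to 1.02. Gsta1 and Gsta2 are uncertain as well because 80.6% and 28.4% of their 100-base windows occurred in another gene's transcript.

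In the pi class the values spread widely within both groups, and 0 of 3 genes passed the test. Gstp3 had 1263, 610.2, 431, 1500.2 and 1219 CPM in NCACS livers against 516, 571, 1386, 1146 and 1156 CPM in CACS livers. The 4 lowest livers, at 431 to 610 CPM, were those of NCACS mice 12 and 13 and CACS mice 16 and 17, and the next was at 1146 CPM. Gstp1 had 151, 218, 306, 156 and 253 CPM in NCACS livers against 253, 408, 129, 157 and 101 CPM in CACS livers. CACS mouse 17 and NCACS mouse 13 were the highest and CACS mouse 20 was the lowest. The log2 fold changes were -0.07 (SE 0.371, adjusted p = 0.935) and -0.05 (SE 0.353, adjusted p = 0.952) from edgeR. Of the 100-base windows of Gstp1, 25.1% also occurred in Gstp2, a gene of 1.31 to 3.44 CPM, and 0 of those of Gstp3 occurred in another gene.

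**Figure D3:**
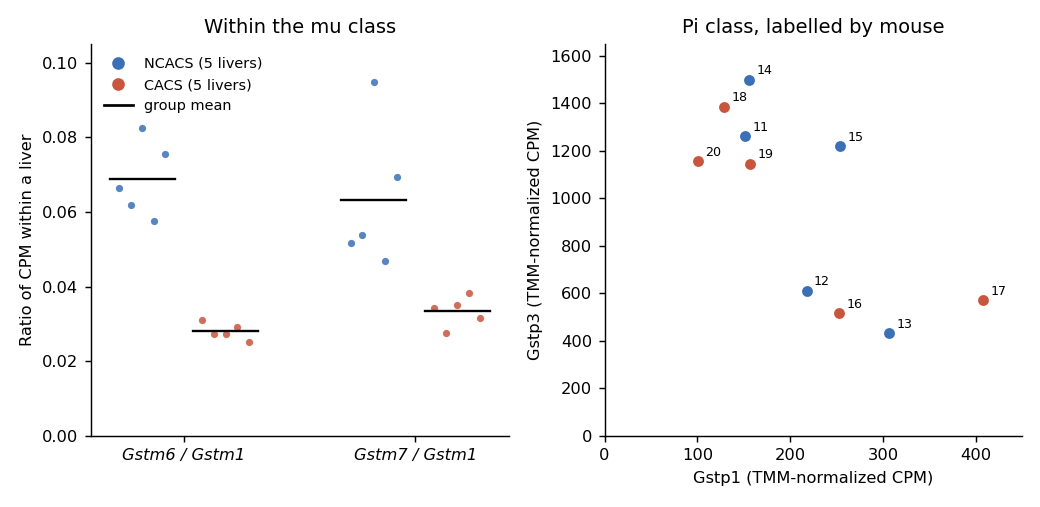
Left, ratio of Gstm6 and of Gstm7 to Gstm1 within each liver (y axis from 0, black lines at group means), with all 5 CACS livers below all 5 NCACS livers for both ratios. Right, Gstp3 against Gstp1 (TMM-normalized CPM) for each mouse, where the 4 lowest in Gstp3, mice 12, 13, 16 and 17, come from both groups.

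Among theta class genes, Gstt1 had 236, 200.3, 142, 302 and 204 CPM in NCACS livers against 185, 212, 254, 188 and 240.0 CPM in CACS livers, with the CACS range inside the NCACS range and a log2 fold change of -0.01 (95% interval -0.40 to 0.39, edgeR adjusted p = 0.987). Gstt3 had 45.2, 32.9, 24.4, 75.8 and 34.6 CPM in NCACS livers against 73.3, 57.9, 54.6, 39.4 and 133 CPM in CACS livers. CACS mouse 20 stood well above all other livers, and the groups overlapped. The log2 difference of Gstt3 was 0.75 (SE 0.350, edgeR adjusted p = 0.240), among the 3 largest above 0, and it was 0.40 without CACS mouse 20. Gstt2 had a log2 fold change of -0.25.

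Gstz1, which doubles as the maleylacetoacetate isomerase of tyrosine breakdown, was among the most even. It had 995, 873, 769.5, 1030.3 and 917 CPM in NCACS livers against 861, 877, 928, 846 and 859 CPM in CACS livers, all CACS livers lay within the NCACS range, and the log2 difference was -0.07 (95% interval -0.31 to 0.17, edgeR adjusted p = 0.766). Gstk1, of mitochondria and peroxisomes, and Gsto1, a thioltransferase, had -0.06 and 0.19. Mgst1, the membrane-bound enzyme of the endoplasmic reticulum and outer mitochondrial membrane, had 3114, 2772, 2806, 3153 and 3882 CPM in NCACS livers against 2963, 2514, 2819, 2229 and 2508 CPM in CACS livers. The highest CACS liver, mouse 16, lay above NCACS mice 12 and 13, and the log2 fold change was -0.27 (SE 0.141, 95% interval -0.58 to 0.04, edgeR adjusted p = 0.291). Mgst3 had 0.19.

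Of the 17 UDP-glucuronosyltransferases 0 passed edgeR's test, and 3 (17.6%, against 21.6% of all genes) had an unadjusted p under 0.05. DESeq2 called Ugt3a1 alone (5.88%, against 8.87%). The Ugt1a genes on chromosome 1 use separate first exons and share the downstream ones. On the same strand 50.3 to 60.6% of the exon bases of each member were common to others, and reads there cannot be told apart. With genes of either strand the share was 82.7% for Ugt1a1 and 64.3% for Ugt1a10, and the strand setting of the counts is not given. Ugt1a1, which conjugates bilirubin, had 68.8, 52.7, 33.6, 83.0 and 68.7 CPM in NCACS livers against 102, 59.1, 79.4, 48.6 and 122 CPM in CACS livers. CACS mice 16 and 20 lay above every NCACS liver and mouse 19 lay below all NCACS livers but mouse 13. The fitted change was 0.42 (SE 0.276, edgeR adjusted p = 0.400).

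Ugt1a10 was near the limit of detection, at 0.801, 0.822, 0.517, 0.0602 and 0.124 CPM in NCACS livers against 0.400, 0.0262, 0.359, 0.113 and 0.286 CPM in CACS livers, or 2 to 33 counts in NCACS and 1 to 16 in CACS livers. The groups overlapped, and its log2 difference of -0.98, the third lowest of the 47, had a 95% interval of -2.52 to 0.55 (edgeR adjusted p = 0.446). Ugt1a5 had a log2 fold change of -0.95 (edgeR adjusted p = 0.319) that became -1.76 (adjusted p = 0.0485) without CACS mouse 20, whose 14.4 CPM was the highest of the 10 livers. Ugt1a9 spread over 6.53 to 78.6 CPM in NCACS livers against 17.8 to 90.9 CPM in CACS livers, with a log2 difference of 0.02. Ugt1a6a, Ugt1a6b and Ugt1a7c had 0.03, -0.03 and -0.38.

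The 8 Ugt2 genes, on chromosome 5 and known for steroid and bile acid glucuronidation, all had log2 fold changes below 0, from -0.98 to -0.03 with a median of -0.31. Ugt2b5, the most abundant, had 736, 576, 438, 879.6 and 1012 CPM in NCACS livers against 502, 727, 686, 558 and 428 CPM in CACS livers. NCACS mice 14 and 15 lay above all CACS livers, NCACS mouse 13 lay below 4 of the 5, and the log2 fold change was -0.33 (SE 0.228, 95% interval -0.82 to 0.17, edgeR adjusted p = 0.432). NCACS mice 14 and 15 were also the highest 2 for Ugt2b1 and Ugt2b36, so that the 8 signs are not independent of each other. Ugt2b37 (-0.98) and Ugt2b38 (-0.86) were below 6 CPM in every liver, and Ugt2b38 is uncertain because 24.2% of its 100-base windows occurred in Ugt2b5. In turn 24.7% of the windows of Ugt2b5 occurred in Ugt2b38, so that the level of Ugt2b5 carries the same limit. Ugt2a3 and Ugt2b34 had the narrowest intervals, -0.39 to 0.34 and -0.48 to 0.07.

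The Ugt3 genes, which belong to a family known for sugars other than glucuronic acid, lay closest to the threshold among the glucuronosyltransferases. Ugt3a1 had 72.7, 70.3, 52.5, 85.2 and 95.7 CPM in NCACS livers against 30.6, 48.7, 58.7, 34.7 and 15.1 CPM in CACS livers. CACS mouse 18 lay above NCACS mouse 13, which was the only overlap. Its fold change in log2 was -1.003 (SE 0.298, 95% interval -1.65 to -0.35), with an adjusted p of 0.0822 in edgeR, 0.0699 in limma-voom and 0.0137 in DESeq2. Ugt3a2, the more abundant of the pair, had 372, 348, 303, 422 and 570.3 CPM in NCACS livers against 317, 254, 337, 289.5 and 262 CPM in CACS livers, and CACS mice 16 and 18 reached into the NCACS range. The estimate in log2 units was -0.46 (SE 0.166, edgeR adjusted p = 0.133).

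Of the 8 sulfotransferases, 0 passed the test in edgeR, and DESeq2 called 1, Sult5a1 (12.5%, against 8.87% of all genes). At an unadjusted p under 0.05 there were 3 (37.5%, against 21.6%). Among the 5 Sult1 genes, 3 had log2 fold changes above 0 and 2 below, and 0 passed in DESeq2. Sult1a1, which sulfates phenols, had 324, 209, 184, 324 and 269.5 CPM in NCACS livers against 529.9, 441, 349, 217 and 572 CPM in CACS livers. All CACS livers but mouse 19 lay above every NCACS liver. As a log2 fold change this was 0.69 (SE 0.254, 95% interval 0.13 to 1.24, edgeR adjusted p = 0.143), and the lowest adjusted p with 1 mouse left out was 0.0659. Sult1d1, which sulfates catecholamines, had 59.2, 52.6, 57.7, 86.9 and 92.9 CPM in NCACS livers against 139, 61.7, 80.3, 99.5 and 150.1 CPM in CACS livers. The highest values were those of CACS mice 16 and 20, as for Sult1a1, and the log2 difference was 0.60 (edgeR adjusted p = 0.188).

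Sult1e1, the oestrogen sulfotransferase, had 0.0297, 1.47, 1.88, 0.301 and 1.70 CPM in NCACS livers against 3.22, 0.0262, 0.228, 0.169 and 6.38 CPM in CACS livers. CACS mice 16 and 20 were again the highest, and 1 liver of each group held only 1 count. Its log2 difference of 0.90, the largest of the 47, had a standard error of 1.11 and a 95% interval of -1.52 to 3.32 (edgeR adjusted p = 0.686), and it was -0.21 without CACS mouse 20. Sult1b1, which sulfates thyroid hormone, and Sult1c2 had -0.33 and -0.41.

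The 3 genes of the Sult2 and Sult5 families had log2 fold changes below 0. Sult2a8, a bile acid sulfotransferase, had 603, 537, 299, 820.3 and 821 CPM in NCACS livers against 349, 578, 596, 377 and 104 CPM in CACS livers. CACS mouse 20 was the lowest of all 10 and the remaining CACS livers lay within the NCACS range. The log2 fold change of -0.62 (SE 0.406, edgeR adjusted p = 0.402) was -0.37 without that mouse. Sult5a1 had 25.7, 23.9, 31.9, 24.1 and 41.4 CPM in NCACS livers against 11.2, 22.5, 24.1, 19.2 and 12.9 CPM in CACS livers, where CACS mouse 18 alone lay above the lowest NCACS liver, that of mouse 12. The group difference was -0.71 (SE 0.231), with an adjusted p of 0.1046 in edgeR and 0.0386 in DESeq2. Sult2a7 had -0.31, and Sult2a1 to Sult2a6 had at most 10 counts in any liver and were not members.

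Compared per kilobase of exon that no other gene shares, Mgst1 had the highest level (1429 ± 226 CPM per kb, SD over 10 livers), followed by Gstm1 (1149.7 ± 342) and Gstp3 (1079 ± 442). These neighbours in the order lay within the spread of each other. Next came Gsta3 (363 ± 77.3), Ugt2b5 (352 ± 103) and Ugt2b36 (312 ± 71.1), which also lay within their spread, and then Sult1a1 (227 ± 89.2), Gstz1 (176 ± 14.8) and Sult2a8 (155 ± 69.4). The genes that fell were of middle level, Gstm7 at 47.7 ± 14.3 and Gstm6 at 39.3 ± 17.9 CPM per kb, ranks 20 and 23 of 47. At the bottom were Ugt1a10 and Ugt1a7c at 0.370 and 0.256 CPM per kb.

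Summed over all 47 genes, transferase transcripts made up 13868 ± 2827 CPM in NCACS livers against 12658 ± 880.1 CPM in CACS livers (SD, n = 5 each), or 1.39% and 1.27% of all counts. The ratio of group means, CACS over NCACS, was 0.913 with overlapping groups. By family the ratio ranged from 0.650 for Sult2 to Sult5 to 1.51 for Sult1, and every family's groups overlapped. The Sult1 sum was 372 ± 86.0 CPM in NCACS livers against 560.5 ± 175 CPM in CACS livers (SD, n = 5 each), and the Sult2 to Sult5 sum was 649 ± 219 CPM in NCACS livers against 421 ± 204 CPM in CACS livers (SD, n = 5 each). The Ugt3 sum was 478 ± 118 CPM in NCACS livers against 329 ± 45.3 CPM in CACS livers (SD, n = 5 each) and its ratio was 0.689. The most abundant gene was Sult1a1 for Sult1, Sult2a8 for Sult2 to Sult5 and Gstm1 for the mu class. The mu class sum had a ratio of 0.982, and without Gstm1 the ratio was 0.556.

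**Figure D4:**
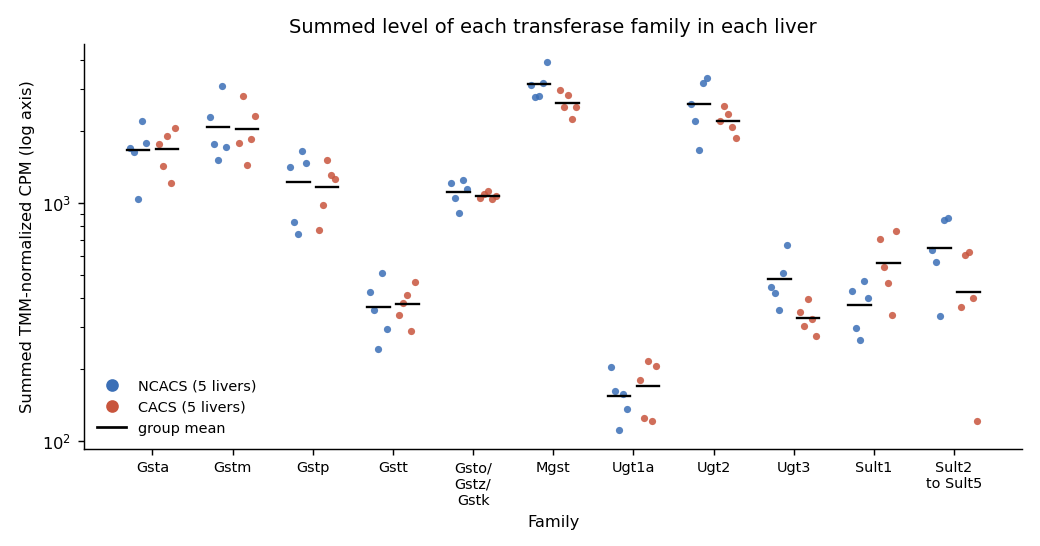
Summed TMM-normalized CPM (log axis) of each transferase family, 1 point per liver (blue NCACS, red CACS) with a black line at each group mean. The groups overlap in all 11 families, and CACS mouse 20 is the lowest point of the Sult2 to Sult5 sum at 121 CPM.

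Single livers held the highest or lowest value of many transferases at once. NCACS mouse 13 had the lowest level of 16 of the 47 genes (34.0%), among them Gsta3, Gstm1, Gstp3, Gstt1, Gstz1 and Ugt1a1, and the lowest level of 15.5% of all genes tested. NCACS mouse 14 had the highest level of 16 (34.0%, against 10.8% of all genes), among them all 4 alpha class genes and Gstm1, Gstm3, Gstm4, Gstm6 and Gstm7. NCACS mouse 15 was highest for 12 (25.5%, against 14.6%), of which 5 were Ugt2 and 2 were Ugt3 genes. CACS mouse 18 was lowest for 9 (19.1%, against 8.60%), including Gstm2, Gstm3, Gstm4, Gstm6 and Gstm7. CACS mouse 20 was near the share of all genes, being highest for 8 (17.02%, against 13.2%), including Gstt3, Sult1a1, Sult1d1, Sult1e1 and Ugt1a1, and lowest for 6 (12.8%, against 13.6%), including Sult2a8 and Ugt3a1. The SD of the summed level was 2827 CPM in NCACS livers against 880.1 CPM in CACS livers.

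**Figure D5:**
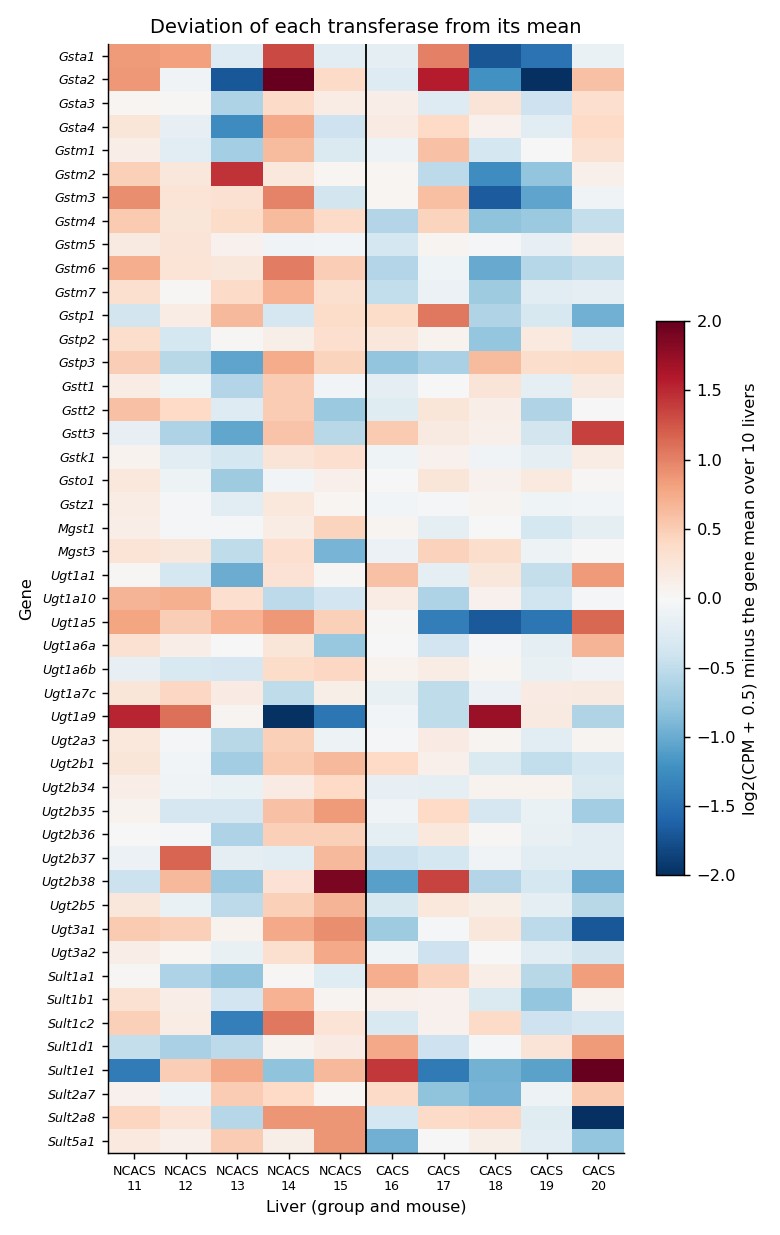
Each transferase (y axis, in family order) in each liver (x axis, NCACS left of the black line and CACS right of it), coloured by log2(CPM + 0.5) minus the gene's mean over the 10 livers, with the colour scale ending at 2 units either side of 0. Gstm6 and Gstm7 lie above their means in all NCACS and below them in all CACS livers, and NCACS mouse 13 and mouse 14 form a mostly blue and a mostly red column.

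Other genes of the pathway were compared in 8 lists, for donor synthesis, export, removal of conjugates, other conjugation, receptors and factors, and receptor targets. Of the 88 genes tested in these lists 6 were called, where 3.8% of all genes were. The lists were chosen with earlier results of these data known, so their shares are a description only. They were Ugdh and Slc26a1 among the donor genes, and Arnt, Hnf4a, Cux2 and Cyp2c55 among receptors, factors and targets. Donor levels themselves were not measured. Of 7 genes for UDP-glucuronic acid synthesis and transport, 1 was called lower (14.3%, against 1.92% of all genes) and 0 higher. Their median log2 difference was -0.05. Ugdh, which oxidises UDP-glucose to UDP-glucuronic acid, had 214, 157, 145, 185 and 206 CPM in NCACS livers against 94.2, 115, 87.2, 87.8 and 82.7 CPM in CACS livers. Every CACS liver lay below every NCACS liver, as was so for 3.13% of all genes tested. On the log2 scale the difference was -0.96 (SE 0.134, edgeR adjusted p = 0.00745), and it was called in each of 19 fits. Pgm1, phosphoglucomutase and the most abundant of the list per length, had -0.05 (SE 0.106), at 223 to 303 CPM in NCACS livers against 224 to 276 CPM in CACS livers.

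Of 7 genes for PAPS synthesis and transport, 1 was called lower (14.3%, against 1.92% of all genes) and 0 higher, with a median of -0.10. Slc26a1, a sulfate transporter of the hepatocyte membrane, had 232, 221, 276, 213 and 183 CPM in NCACS livers against 143, 121, 160.0, 137 and 148 CPM in CACS livers. Here too every CACS liver lay below every NCACS liver, a pattern shown by 3.13% of all genes tested. The log2 fold change was -0.67 (SE 0.121, edgeR adjusted p = 0.0194), called in each of 19 fits. Papss2, the main PAPS synthase of liver, had 179.6, 156, 163, 186 and 164 CPM in NCACS livers against 181, 105.5, 119, 75.0 and 185 CPM in CACS livers. CACS mice 16 and 20 lay with the NCACS livers and the other 3 lay below them, and its log2 difference was -0.35 (edgeR adjusted p = 0.366).

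In the glutathione list 0 of 13 genes passed edgeR's test and DESeq2 called 0, with a median of -0.07. At an unadjusted p under 0.05 there were 3 (23.1%, against 21.6% of all genes). Gclc, the catalytic subunit of the enzyme that limits glutathione synthesis, had 370.3, 278, 162, 526 and 542 CPM in NCACS livers against 228, 301, 311, 203 and 163 CPM in CACS livers. NCACS mice 14 and 15 were the highest and NCACS mouse 13 the lowest, and the log2 fold change was -0.64 (SE 0.303, edgeR adjusted p = 0.247). Lap3, a peptidase and the highest of the list per length, had 285 to 374 CPM in NCACS livers against 214 to 355 CPM in CACS livers, a log2 difference of -0.35. Of 7 conjugate exporters 0 passed, and DESeq2 called Abcb11 (14.3%, against 8.87% of all genes). An unadjusted p under 0.05 was held by 2 of the 7 (28.6%, against 21.6%). Abcc2, the exporter of conjugates into bile and the highest of that list, had 537 to 761 CPM in NCACS livers against 514 to 682 CPM in CACS livers and a log2 fold change of -0.07. Of 5 enzymes that remove glucuronide or sulfate 0 passed, and Arsa, the highest of them, had -0.26. Among the 5, 2 had an unadjusted p under 0.05 (40%, against 21.6%), and DESeq2 called Arsb (20%, against 8.87%).

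All 10 Kupffer cell and macrophage markers had log2 fold changes below 0 (median -0.56; 50.6% of all genes tested were below 0), and Cd5l passed the test (-0.90, edgeR adjusted p = 0.0374), though in only 11 of 19 fits and with an adjusted p of up to 0.0862 when 1 mouse was left out. Their summed level was 216 to 377 CPM in NCACS livers against 141 to 285 CPM in CACS livers. Neutrophil markers summed to 4.49 to 20.9 CPM against 2.44 to 6.32, lymphocyte markers to 9.02 to 20.99 against 6.45 to 13.2, cholangiocyte markers to 33.6 to 52.9 against 20.3 to 49.9, stellate cell markers to 184 to 319 against 215 to 308 and endothelial markers to 200.1 to 291 against 256 to 321 CPM. Markers of lung epithelium, listed for tumour cells that might reach the liver, summed to 3.56 to 9.41 CPM against 3.86 to 13.6 CPM. Of the 6 tested in that list, 3 had log2 fold changes above 0 and 3 below, with a median of 0.18. Among them Sftpa1 alone, a surfactant protein, passed the test (1.27, edgeR adjusted p = 0.0323) at 1.26 to 1.54 CPM in NCACS livers against 1.72 to 5.65 CPM in CACS livers. It was called in 11 of 19 fits, not in limma-voom, and its adjusted p reached 0.0681 with 1 mouse left out. Of all markers matched, 0 were at 0 in all 10 livers. The part of other cells in the values of Gstm6, Gstm7, Ugdh and Slc26a1 was not tested.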

How the data were processed

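Poly(A)-selected RNA from 10 livers was sequenced as single-end reads. Part of the genotype, shared by all mice, is not reported here. The authors aligned the reads with STAR 2.4.1d to GRCm38, counted reads per gene with HTSeq 0.6.1 and deposited raw counts without normalization. The annotation release and strand setting are not given in the sources used here, so overlapping and antisense genes are uncertain, and the authors' batch correction, which spans libraries not analysed here, was not repeated. The labels give no batch. Symbols, positions and exon lengths came from GENCODE M21, which lacked 1167 identifiers, and 0 sample columns were left unused.

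Genes passing filterByExpr were normalized by TMM and tested with edgeR 4.0.16's quasi-likelihood test in R 4.3.3, with Benjamini-Hochberg adjustment and a threshold of 0.05. DESeq2 1.42.0, limma-voom (limma 3.58.1), other scalings and filters, a robust fit and omission of each mouse were alternatives. The scripts were tested on simulated data. Libraries of a group were not duplicates (smallest chi-square per degree of freedom 46.6). CPM per kb used exon bases that no other gene of the strand covers. Upstream sequences came from RefSeq on GRCm38.p6, which matched 42 of 47 members. P-values measure the spread between mice, and counting error is small except below about 1 CPM.

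Members and gene lists were chosen with earlier results of these data known. Values per liver were given for transferases past the threshold or without overlap, the highest per length in each family and the 3 largest rises and 3 largest falls, and from the lists for called genes, the highest per length and Ugdh, Papss2 and Gclc. Gstm2, Gstm4, Gstp1, Sult1d1, Sult5a1 and other genes named beyond this rule were chosen after their values were seen. Sts and Tf were not matched by symbol.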

Additional observations from a re-analysis of the deposited data

Results flagged for a closer look

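In all, 3 values lay apart from the other livers of their group by Dixon's test, among 94 combinations of a gene and a group examined, of which chance alone would set apart about 1 in 20. The gap to the nearest liver was 0.730 of the group's range for Gstm4 in CACS mouse 17 (72.9 CPM, next 38.5 CPM). It was 0.716 for Ugt1a6a in NCACS mouse 15, the lowest of its group (8.12 CPM, next 14.1 CPM), and 0.741 for Ugt1a7c in NCACS mouse 14, also the lowest (0.181 CPM, next 0.556 CPM).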

How the results depend on the processing

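No paired analysis was possible because no mouse number occurs in both groups. Transferases called higher were 0 in all 19 fits. Transferases called lower numbered 2, and 6 in DESeq2, 3 in limma-voom, and 1 to 3 with each mouse left out (1 without NCACS mouse 11, NCACS mouse 14, CACS mouse 16 or CACS mouse 19). Pathway genes called numbered 6, 15 in DESeq2 and 4 to 7 with each mouse left out. The direction was the same in every fit for 36 transferases and turned in at least 1 for 11. Among those described by liver, Gsta3 was -0.0014 with upper-quartile factors and -0.12 to 0.11 with each mouse left out, Gstp1 was -0.44 to 0.13, Gstp3 was -0.26 to 0.12, Gstt1 was 0.029 in limma-voom and -0.13 to 0.14, and Sult1e1 was -0.17 in limma-voom and -0.21 to 1.22. The cause was not tested. Leaving out the most abundant gene moved the ratio of sums to 0.556 for the mu class, 1.14 for Mgst and 1.44 for all sulfotransferases, and the full exon length moved Ugt1a1 from 78.7 to 32.3 CPM per kb. Sult1e1, Ugt1a10, Ugt1a7c and Gsta1 dropped out with at least 10 counts asked of every liver. These low genes had few counts in some livers, with 1 count of Sult1e1 in 1 liver of each group. They also spread widely between mice, with 1 to 223 counts of Sult1e1 and 8 to 173 of Gsta1 in CACS livers.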

Other observations

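Receptors and factors that control conjugation genes held 3 of the 6 pathway genes called, all higher in CACS livers, among 19 tested (median log2 fold change 0.05). The 3 were 15.8% of the 19, against 1.89% of all genes tested that were called higher. As the list was chosen with earlier results of these data known, this share is a description and no support. Log2 fold changes were above 0 for 10 of the 19 and below 0 for 9. The groups did not overlap for 2 of the 19 (10.5%, against 7.07% of all genes tested). Arnt, the partner of the aryl hydrocarbon receptor, had 39.9, 41.6, 36.7, 37.1 and 39.8 CPM in NCACS livers against 58.3, 49.8, 66.4, 55.2 and 52.1 CPM in CACS livers, without overlap (0.53, SE 0.0912, edgeR adjusted p = 0.0165), and was called in each of 19 fits. Hnf4a, a nuclear receptor of hepatocyte identity and the highest of the list per length, had 632, 636, 637, 568 and 688 CPM in NCACS livers against 908, 826, 729, 1007 and 988 CPM in CACS livers, also without overlap (0.50, edgeR adjusted p = 0.0435), but was called in only 9 of 19 fits and lost the call without any 1 mouse except CACS mouse 18. Cux2, a homeobox factor known as female-biased in mouse liver, had 0.653, 0.597, 0.291, 0.482 and 0.309 CPM in NCACS livers against 30.6, 0.551, 17.3, 0.817 and 53.4 CPM in CACS livers, where mice 16, 18 and 20 stood far above the other 7 livers. Its log2 difference was 5.44 (SE 1.14, edgeR adjusted p = 0.0298), and it was called in 10 of 18 fits. Bcl6, a male-biased repressor, had a log2 difference of -1.17 (adjusted p = 0.0806 in edgeR and 0.0107 in DESeq2). The receptors for foreign compounds Nr1i2 and Nr1i3 had 0.58 and 0.72 (edgeR adjusted p = 0.0916 and 0.134).

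Among 15 targets of these receptors that are not transferases, 1 was called lower (6.67%, against 1.92% of all genes) and 0 higher. The median was -0.15, and this list too was chosen with earlier results known. Cyp2c55, a cytochrome P450 of the foreign compound response, had 26.1, 20.6, 13.5, 32.3 and 11.8 CPM in NCACS livers against 2.10, 7.11, 1.83, 2.73 and 6.53 CPM in CACS livers. The groups did not overlap, as was so for 7.07% of all genes tested (3.13% lower in CACS). The log2 difference was -2.36 (SE 0.426, edgeR adjusted p = 0.0194), called in each of 19 fits. Cyp3a11, the highest of the list per length, had a log2 difference of -0.66 (SE 0.443, edgeR adjusted p = 0.413). Of 15 other conjugating enzymes 0 passed edgeR's test. An unadjusted p under 0.05 was held by 4 (26.7%, against 21.6% of all genes), and DESeq2 called 3 (20%, against 8.87%). Inmt, the highest of these per length, spread over 95.2 to 687 CPM in NCACS livers against 290.3 to 551 CPM in CACS livers. Acnat2, an acyltransferase of fatty acids and bile acids, had a log2 difference of 1.68 (adjusted p = 0.0671 in edgeR and 0.0269 in DESeq2).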
